A study of Mus musculus with 4 samples.

Results

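The dependence of the renal cortex's diabetic response on ICAM-1 was described as an interaction, the difference between diabetic and nondiabetic cortex in ICAM-1-/- mice minus the same difference in ICAM-1+/+ mice. It was taken from all 4 arrays of the series and from 5738 of the 10032 gene features on the array. A feature is one gene probe, and it entered where the scanner software called its spot usable on every array and where it lay outside a strip at the array's edge. Of these features, 5287 carried a gene symbol, for 5234 different genes.

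Each group was 1 array of renal cortex RNA from male mice of the C57BL/6J strain, aged 20 weeks. The nondiabetic wild-type group (ND-WT) was ICAM-1+/+ and had received citrate buffer at 8 weeks of age, and the diabetic wild-type group (DM-WT) had received streptozotocin at 200 mg/kg. The groups ND-KO and DM-KO had the same injections and carried the ICAM-1-/- genotype on the same background. The knockout mice were purchased, and whether the wild types were their littermates is not given in the sources used here. Diabetic mice were kept in the study where their blood glucose, taken after the injection, passed a set level. All mice were killed 12 weeks after the injection. The labels give 5 mice per group, and whether an array held 1 mouse or a pool is not given in the sources used here. In these mice every cell of the body lacks the intact gene, so the genotype is not specific to the kidney. The targeted transcript was not analysed here, and the genotype labels were therefore not checked against it.

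ICAM-1 is an adhesion molecule on endothelium and tubule epithelium to which leukocytes bind through the integrins LFA-1 and Mac-1 before they leave the blood. Streptozotocin destroys the insulin-producing cells of the pancreas and also alkylates DNA in other cells that take it up, the proximal tubule among them. In the diabetic kidney, macrophages enter the interstitium and glomeruli, and interferons, made by leukocytes and by tissue cells, switch on antiviral and antigen-presenting genes through STAT and IRF factors. The study's design asks which part of the cortex's response to diabetes differs when ICAM-1 is lacking.

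The tissue label was checked against markers. Of 33 proximal tubule features on the array, between 32 and 33 were usable on each array. The summed intensity of the 31 that were analysed lay between 40089 and 43588. Of 11 adrenal features 4 to 5 were usable, and of 12 skeletal muscle features 2 to 5. DM-WT stood apart from the other arrays in its technical readings. It had the fewest usable gene features, 6301 against 6496 to 6641, the lowest median background-subtracted intensity, 98.3 against 115 to 118, and bacterial spike-in controls at 0.556 of their ND-WT intensity where the knockout arrays were at 1.22 and 1.27. Leaving out an array leaves no interaction to compute, so every value below rests on this array too. With 1 array per group the interaction has no residual degree of freedom, and no test was possible. The number of arrays limits the precision. Spots of the same bacterial probe gave a median SD of 0.11 (log2) for an interaction, and 51 genes with a pair of features gave 0.22. Both measure the array and not the spread between mice. The members of 5 of these pairs fell in different classes, among them the features of Acot11, with interactions of 0.12 and 0.72. Below, 4 readings of a gene in a row are log2 intensities in the order nondiabetic and diabetic wild type, then nondiabetic and diabetic knockout, and they are not compared between genes.

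The diabetic difference was larger in wild-type cortex than in ICAM-1-/- cortex. At a threshold of 1.5-fold, 237 features (4.13%) were higher in DM-WT than in ND-WT and 147 (2.56%) were lower. Between the knockout arrays 95 (1.66%) were higher in DM-KO and 76 (1.32%) lower. The SD of the difference over all features was 0.33 (log2) in wild type and 0.25 in the knockout. The interaction reached 1.5-fold in 334 features, of which 143 (2.49%) were higher in the knockout's response and 191 (3.33%) lower. At 2-fold it was 15 higher and 41 lower. Across all features the 2 differences had a Pearson correlation of 0.47 (n = 5738 features, which are not independent and of which each difference uses its own pair of arrays), and 59.9% had the same sign.

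Features were put into classes by these 3 sizes. A response was called kept where both genotypes passed 1.5-fold in the same direction and the interaction did not, which held for 36 higher and 32 lower features (26 and 45 from the deposited value table). In 9 higher and 5 lower features both responses passed but the knockout's was smaller by 1.5-fold or more, and in 1 each way it was larger. Blunted responses, past the threshold in wild type, not in the knockout, and with an interaction past it, were the most frequent of the classes with an interaction, at 104 higher and 52 lower. Knockout-only responses, the converse, were 17 higher and 14 lower. In 4 features the responses were reversed, past the threshold in opposite directions. A further 127 features were opposed, with an interaction past 1.5-fold made of differences that each stayed under it. The rest either responded in 1 genotype with an interaction under the threshold (140 wild-type and 52 knockout responses, called in between) or passed nowhere (5144).

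**Figure D1:**
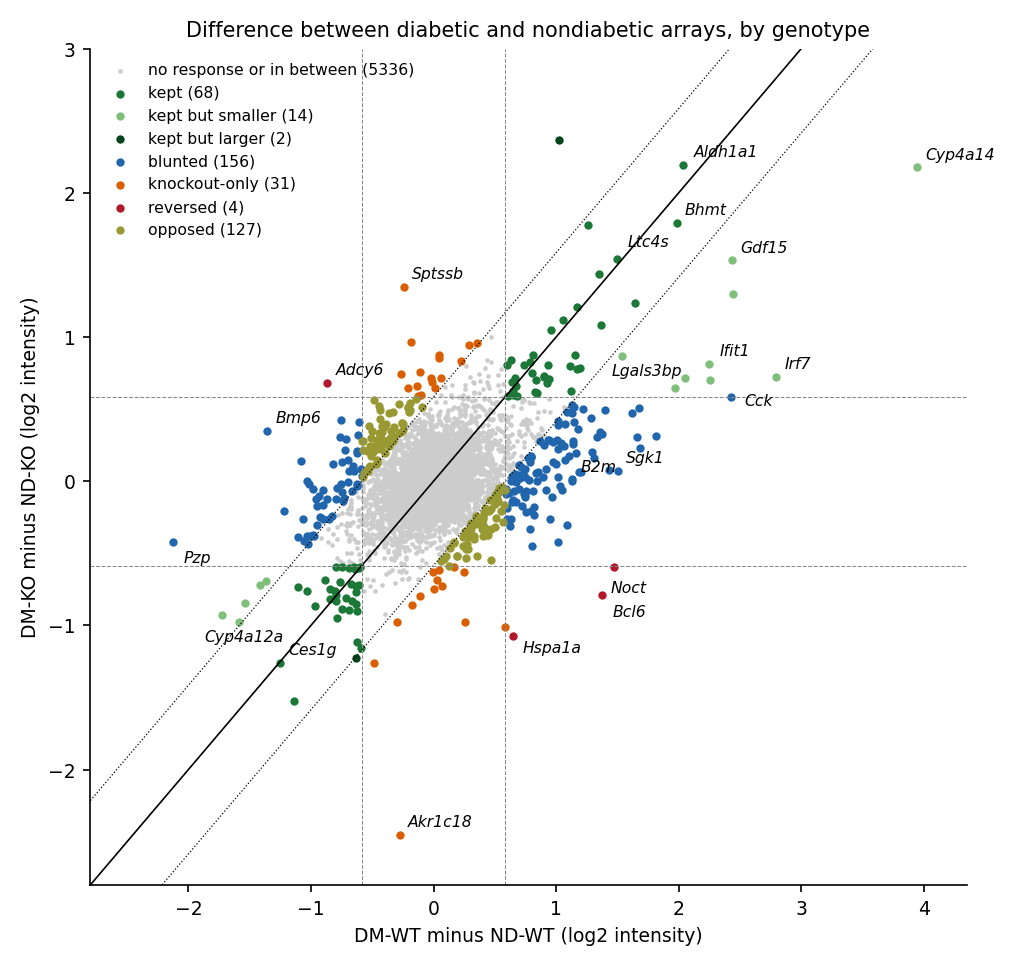
Difference between the diabetic and the nondiabetic array in wild type (horizontal axis, log2 intensity) against the same difference in ICAM-1-/- mice (vertical axis, log2 intensity), one point per gene feature, coloured by class with the number of features. The solid line marks equal responses, the dotted lines an interaction of 1.5-fold and the dashed lines a response of 1.5-fold. The 156 blunted features lie near the horizontal axis, Irf7 and Cyp4a14 lie far below the line of equal responses, and Aldh1a1 and Bhmt lie on or near it.

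The wild-type and knockout responders differed in how far the other genotype shared them. The 384 features past 1.5-fold in wild type had a median of 36.6% of that log2 difference in the knockout, 328 of them had the same sign there, and 84 passed the threshold in the same direction. The 171 features past it in the knockout had a median of 71.4% of their difference in wild type, with 149 of the same sign. Each set was chosen on one genotype's pair of arrays and read on the other's, so both medians carry that choice. They also carry the larger spread over all features in wild type, an SD of 0.33 (log2) against 0.25 in the knockout. The gap between the 2 medians is therefore not a result about the responders alone. Among the 156 blunted features, the knockout difference lay within 0.2 (log2) of 0 in 88 and had the opposite sign in 52. The class counts depended on background treatment. With normexp background correction and an offset of 50, which pulls dim features together, 25 features were kept and 41 blunted, and without background subtraction 26 and 41. Class members found under every normalization and background setting numbered 22 kept, 33 blunted, 8 knockout-only and 0 reversed.

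**Figure D2:**
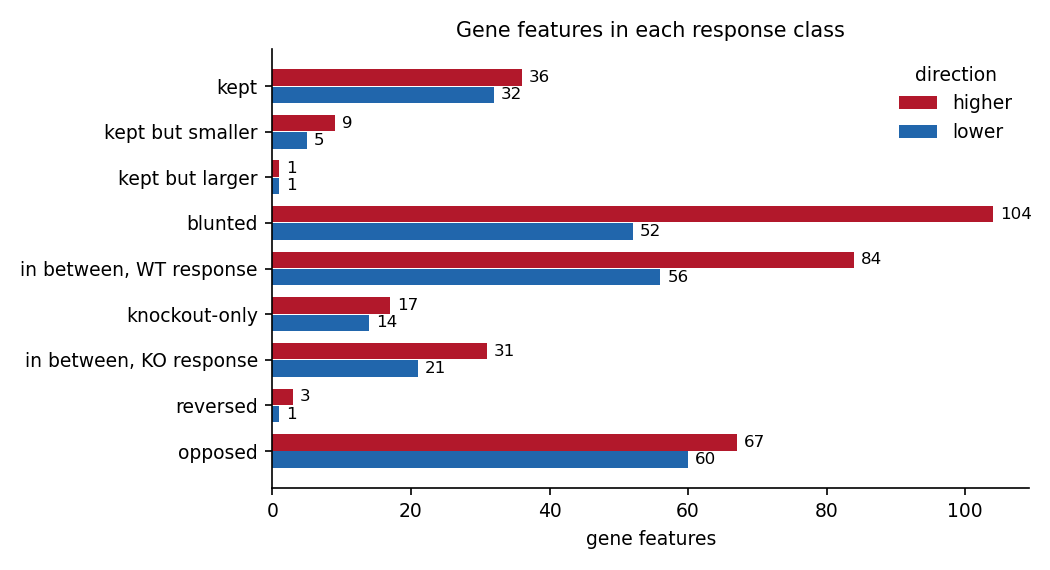
Number of gene features (horizontal axis) in each response class, by direction of the response or, for opposed features, of the interaction. Blunted responses numbered 104 higher and 52 lower, kept ones 36 and 32, and knockout-only ones 17 and 14.

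The kept responses on the higher side were led by Aldh1a1, Bhmt, Ltc4s, Kynu, Aldh1a7, Ephx1, Mgmt and Ifit2, most of which encode metabolic enzymes. Aldh1a1, a retinaldehyde dehydrogenase, had a log2 intensity of 6.85 (ND-WT) and 8.89 (DM-WT) in wild type and 6.49 (ND-KO) and 8.69 (DM-KO) in the knockout. Both diabetic arrays lay above both nondiabetic ones, by 4.10-fold in wild type and 4.58-fold in the knockout. Its neighbour in the family, Aldh1a7, was 2.39-fold and 3.43-fold higher. Bhmt, which remethylates homocysteine with betaine, read 4.18, 6.16, 4.39 and 6.18 in the same order of arrays, 3.95-fold and 3.46-fold higher. Ltc4s, leukotriene C4 synthase, read 5.80, 7.30, 5.85 and 7.39. Its interaction was 0.04 (log2), under the spread of repeated spots. Kynu, the kynureninase of tryptophan breakdown, was 2.55-fold higher in wild type and 2.70-fold higher in the knockout. The DNA repair enzyme Mgmt was 2.26-fold and 2.31-fold higher, and the epoxide hydrolase Ephx1 3.13-fold and 2.36-fold. Bhmt, Kynu and Mgmt were dim, without a signal above local background on all arrays.

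On the lower side, the kept class held several genes that male mouse kidney expresses under androgen. Ces1g, one of them and a carboxylesterase, read 7.79 (ND-WT) and 6.54 (DM-WT) in wild type and 7.47 (ND-KO) and 6.21 (DM-KO) in the knockout, with both diabetic arrays below both nondiabetic ones. It was 2.38-fold lower in wild type and 2.39-fold lower in the knockout. Bcat1, a branched-chain aminotransferase that is not on the androgen list, read 6.19, 5.06, 6.63 and 5.10. Odc1, which makes the polyamine putrescine, was 1.74-fold and 1.73-fold lower, and Acsm3 1.73-fold and 1.93-fold. The adipokine gene C1qtnf3 was 1.80-fold and 1.76-fold lower.

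The gene lists gave the same split. Of 16 androgen-dependent kidney genes measured (19 features on the array), 12 were lower by 1.5-fold in wild type, against 2.56% of all features, and 9 in the knockout, against 1.32%. Their median difference was -0.77 (log2) in wild type and -0.69 in the knockout, and 7 were kept, against 0.558% of all features kept on the lower side. Of the other 5 responders, Pzp and Ugt2b37 were blunted and Cyp4b1 was in between. Cyp4a12a, a fatty acid hydroxylase whose signal may include its close copies, read 9.93, 8.20, 10.05 and 9.13, a smaller difference in the knockout. Rnf24, a ubiquitin ligase, was 1.55-fold lower in wild type and 2.34-fold lower in the knockout. Of 44 detoxification and NRF2 target features, 10 were higher in wild type (4.13% of all) and 8 in the knockout (1.66%), with 7 kept on the higher side (0.627%). On the lower side were 2 in wild type, Akr1b3 and Ces1g (2.56% of all), and 1 in the knockout, Ces1g (1.32%). The median interaction was 0.06 against 0.01 over all features. The glutathione transferase Gsta2 was among the kept, with log2 differences of 1.05 and 1.12.

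**Figure D3:**
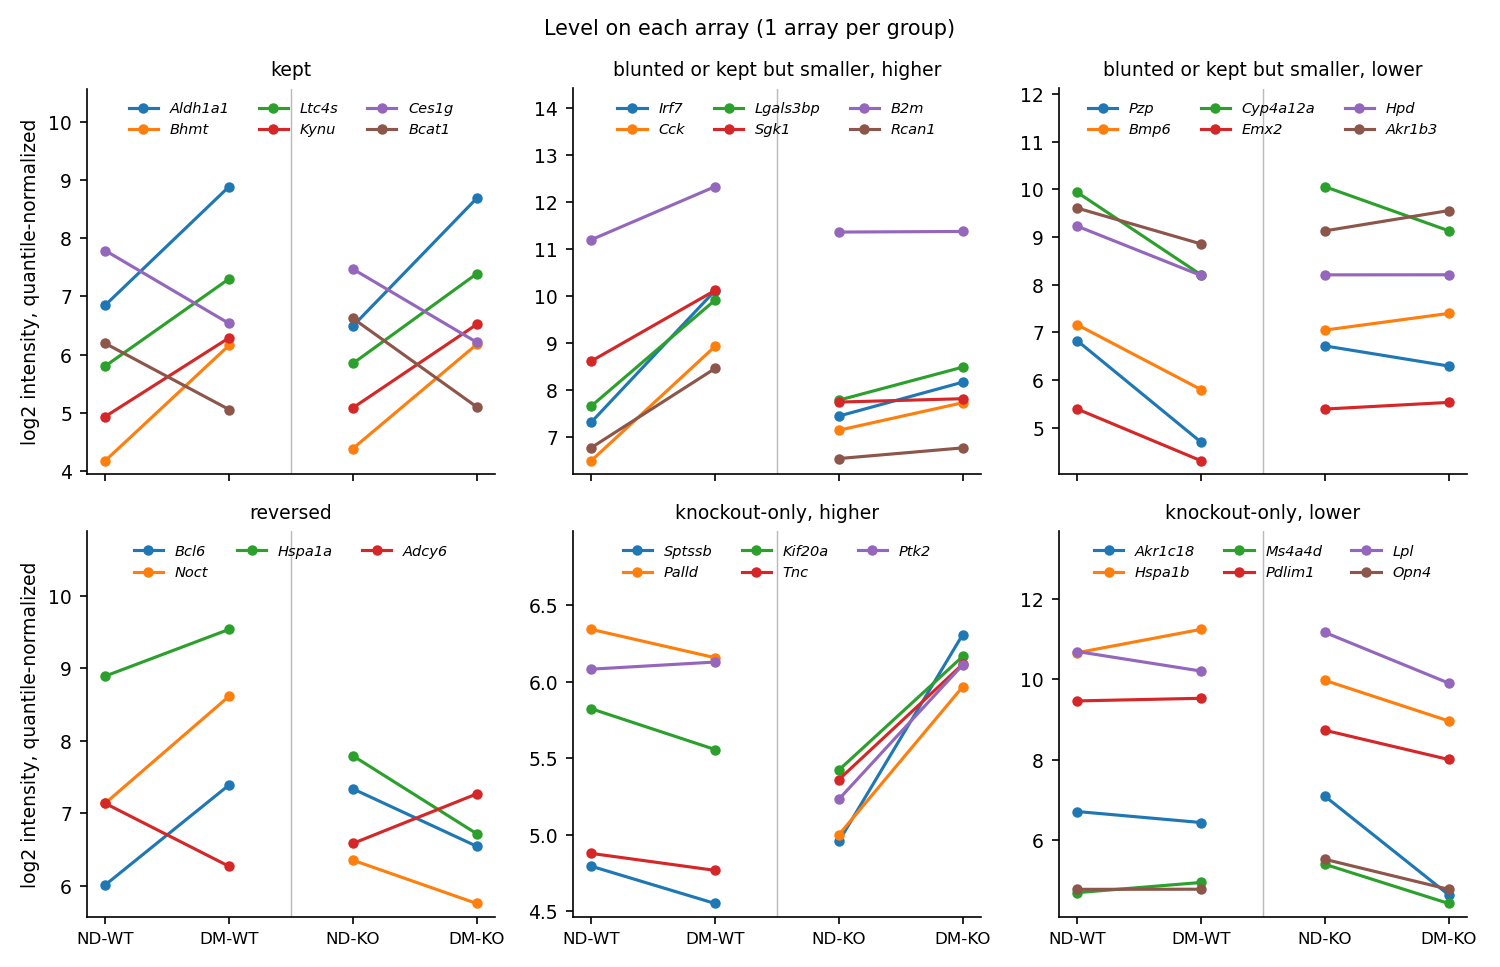
Quantile-normalized log2 intensity (vertical axis) of leading genes of each class on the 4 arrays, 1 array per group, with a line joining the nondiabetic and the diabetic array of each genotype. The lines have like slopes in both genotypes for the kept genes, flatten in the knockout for Sgk1 (7.74 to 7.81) and B2m (11.35 to 11.36), and run in opposite directions for Bcl6 and Adcy6.

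Interferon-induced genes made up a largely uniform group among the reduced responses. Of 23 measured (36 on the array), 21 were higher by 1.5-fold in DM-WT than in ND-WT, against 4.13% of all features, and 5 were higher in DM-KO than in ND-KO, against 1.66%. The interaction was lower by 1.5-fold or more in 16, against 3.33%, and higher in 0. Their median difference was 1.16 (log2) in wild type and 0.29 in the knockout, with a median interaction of -0.86. The median interaction was -0.53 with normexp and -0.52 without background subtraction. Since this list was chosen with earlier results of these data known, its counts are a description.

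Irf7, the transcription factor that amplifies type I interferon production, read 7.31 (ND-WT) and 10.11 (DM-WT) in wild type and 7.44 (ND-KO) and 8.16 (DM-KO) in the knockout. DM-WT stood above the other 3 arrays, and the difference was 6.96-fold in wild type and 1.65-fold in the knockout. Lgals3bp, a secreted galectin-binding glycoprotein, read 7.65, 9.90, 7.78 and 8.48. Ifit1, which binds foreign RNA, read 5.08, 7.33, 4.95 and 5.76, and Cxcl10, a chemokine for T cells, read 4.95, 7.00, 5.21 and 5.93. In all 4 genes the knockout also passed 1.5-fold, so they fell in the kept but smaller class. Ifit3, a partner of Ifit1, was blunted at 3.16-fold in wild type and 1.24-fold in the knockout. Iigp1, an immunity-related GTPase, read 5.66, 7.09, 6.34 and 6.42. Here ND-KO was already above ND-WT by 0.69 (log2). Rtp4, a receptor-transporting protein on none of the lists, was also blunted, at 5.66, 7.48, 6.11 and 6.43.

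In 7 of the 23 the interaction did not reach 1.5-fold. Ifit2, a family member of Ifit1 and Ifit3 on the same chromosome, was the kept one among them, at 4.79, 6.17, 4.79 and 5.87. It was 2.59-fold higher in wild type and 2.12-fold in the knockout. Ifit2 was dim, and so were Ifit1 and Cxcl10 above, which likewise did not have a signal above local background on all arrays. Among the blunted members, Irf1, an early target of interferon-gamma, had log2 differences of 0.62 and -0.08, and the chemokine Cxcl9, another such target, 1.19 and 0.06. Gbp2, Gbp4, Irf9 and Irgm2 were in between, with a response past 1.5-fold in wild type and interactions of -0.38, -0.32, -0.53 and -0.17. Cmpk2 and Trim25 did not pass 1.5-fold in either genotype, and Trim25 had the 1 interaction above 0, at 0.10. Genes of this group with close copies, among them Ifit3 and Tgtp1, may share signal with them.

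Promoter sequences are shown for 4 of the higher genes whose response was smaller in the knockout, since their interferon-stimulated response element, a site for IRF factors, is visible in them. The element was searched on both strands as GAAA, any 2 bases and a second GAAA, and each sequence runs 5′ to 3′ on the gene's strand from 250 bases before to 50 bases after the start site, with the matches in capitals (TTTC at either end where the match is on the other strand). The sequences come from RefSeq, build GRCm38.p6, at chr19:34640639-34640938 (+ strand) for Ifit1, chr19:34583279-34583578 (+) for Ifit3, chr5:92348840-92349139 (- strand) for Cxcl10 and chr2:122147437-122147736 (+) for B2m.
Ifit1: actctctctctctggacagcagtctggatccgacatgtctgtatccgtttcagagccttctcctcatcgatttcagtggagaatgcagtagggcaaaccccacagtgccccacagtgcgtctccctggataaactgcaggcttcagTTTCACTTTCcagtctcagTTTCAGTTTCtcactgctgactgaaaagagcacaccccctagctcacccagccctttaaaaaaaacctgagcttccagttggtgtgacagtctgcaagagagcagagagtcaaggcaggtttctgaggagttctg
Ifit3: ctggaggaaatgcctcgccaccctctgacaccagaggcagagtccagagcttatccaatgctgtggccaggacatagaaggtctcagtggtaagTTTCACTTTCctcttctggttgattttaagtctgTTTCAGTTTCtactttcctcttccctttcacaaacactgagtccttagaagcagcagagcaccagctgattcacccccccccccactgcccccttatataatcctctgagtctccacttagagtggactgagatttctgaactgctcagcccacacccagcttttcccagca
Cxcl10: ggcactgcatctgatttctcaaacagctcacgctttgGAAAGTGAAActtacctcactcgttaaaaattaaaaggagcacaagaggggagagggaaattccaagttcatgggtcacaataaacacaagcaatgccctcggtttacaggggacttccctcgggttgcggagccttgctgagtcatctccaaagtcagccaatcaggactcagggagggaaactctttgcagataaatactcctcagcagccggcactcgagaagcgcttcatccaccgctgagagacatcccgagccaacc
B2m: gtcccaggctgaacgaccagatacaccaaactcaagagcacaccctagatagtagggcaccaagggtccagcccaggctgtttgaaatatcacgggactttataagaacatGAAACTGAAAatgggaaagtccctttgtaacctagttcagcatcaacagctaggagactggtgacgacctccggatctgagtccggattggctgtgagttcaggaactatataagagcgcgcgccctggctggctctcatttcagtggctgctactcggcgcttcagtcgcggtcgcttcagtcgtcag
The first matches start 104 and 85 bases before the start site in Ifit1, 156 and 122 in Ifit3, 213 in Cxcl10 and 139 in B2m. The table paired 4221 of the 5234 genes with a promoter. The element was found in 12 of 98 promoters (12.2%) of blunted genes on the higher side, in 3 of 7 of the kept but smaller ones and in 1 of 33 (3.03%) of the kept ones. It was in 0 of 48 promoters of blunted genes on the lower side. All 32851 promoters of the table held it in 3.44%. Without the genes of the interferon list, 8 of 90 promoters (8.89%) of the higher blunted or kept but smaller genes held it. They belonged to B2m, Ctss, D17H6S56E-5, Igf2, Plk2, Sgk1, Trim21 and Trim34a, with a match in 1 of 6 windows for Sgk1 and 1 of 4 for Igf2. The list need not hold every interferon-induced gene, and B2m is a gene of antigen presentation. This share therefore does not stand apart from the interferon group. A match is a description of the letters and was not tested as a binding site. Of 7 motifs searched, the antioxidant response element was in 12.4% of all promoters and 13.3% of those of the higher blunted genes. No match was found in the promoters of Irf7 and Ifit2, which says only that these letters are not in those windows.

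Genes of antigen presentation followed the interferon group with smaller differences. B2m, the light chain of MHC class I, read 11.19 (ND-WT) and 12.32 (DM-WT) in wild type and 11.35 (ND-KO) and 11.36 (DM-KO) in the knockout. DM-WT was the single array apart, and the difference was 2.19-fold in wild type and 1.01-fold in the knockout. Psmb8, a subunit of the immunoproteasome, read 6.84, 7.81, 7.13 and 7.40, and Tap2, which moves peptides into the endoplasmic reticulum, 6.18, 6.85, 6.47 and 6.46. Of 14 features measured (24 on the array) 8 were higher by 1.5-fold in wild type (4.13% of all features), 0 in the knockout (1.66% of all), and 3 had a lower interaction past the threshold (3.33% of all). The median difference was 0.63 (log2) in wild type and 0.09 in the knockout. Of the 14 interactions 13 lay below 0, against 2761 of 5738 over all features. The MHC class II genes H2-Aa and H2-Eb1 differed by 0.81 and 0.87 in wild type and by 0.31 and 0.32 in the knockout. Their interactions, -0.50 and -0.55, stayed under the threshold. Signals of MHC genes may be shared with close copies.

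Macrophage and monocyte markers had their highest summed level on DM-WT. Lyz2, lysozyme, read 6.98 (ND-WT) and 8.06 (DM-WT) in wild type and 6.99 (ND-KO) and 7.38 (DM-KO) in the knockout. C1qa, a chain of complement C1q, read 6.85, 7.99, 7.01 and 7.52, and the lysosomal protease gene Ctss 7.22, 8.36, 7.30 and 7.83. On each of these 3 the diabetic array was the higher one in both genotypes, with the larger gap in wild type. Of 14 markers measured, 8 were higher by 1.5-fold in wild type (4.13% of all features) and 2 in the knockout (1.66%), and 5 had a lower interaction past the threshold (3.33%). The Fc receptor gene Fcgr2b had differences of -0.63 in wild type and -0.42 in the knockout. The lipopolysaccharide co-receptor Cd14 and C1qc were kept. The summed intensity of the 14 was 1057 (ND-WT) and 1800.2 (DM-WT) in wild type and 1148 (ND-KO) and 1431 (DM-KO) in the knockout. Of 23 marker features on the array, 16, 20, 17 and 17 were usable in that order. Lymphocyte markers were less complete, with 10 to 13 of 24 usable, and 1 of 10 neutrophil markers was usable on each array. In RNA of whole cortex, fewer cells of a type and less RNA per cell cannot be told apart, and the part of these cells in the interferon and antigen presentation differences was not tested. The median interaction of the marker list was -0.29, and it ranged from -0.60 to -0.15 over the processing alternatives.

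**Figure D4:**
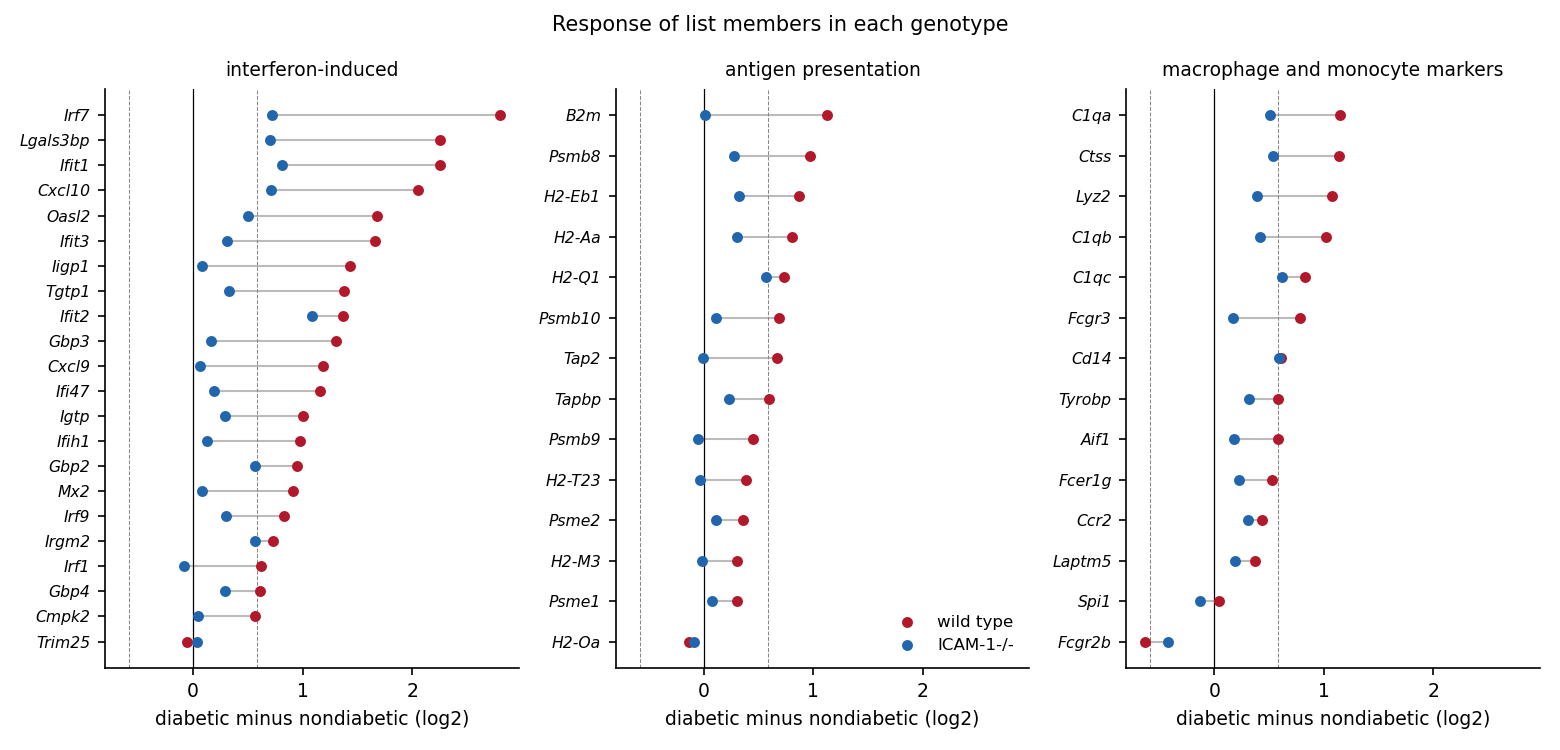
Difference between the diabetic and the nondiabetic array (horizontal axis, log2) for the measured genes of the interferon-induced (1 not shown), antigen presentation and macrophage lists, in wild type (red) and ICAM-1-/- (blue), with dashed lines at 1.5-fold. For Irf7 the points lie at 2.80 and 0.72, for B2m at 1.13 and 0.01, and for Cd14 they nearly coincide at 0.61 and 0.59.

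Of 29 immediate early and glucocorticoid-induced features, 9 had an interaction past 1.5-fold on the lower side, against 3.33% of all features, and 1, Klf10, on the higher side, against 2.49%. Sgk1, a kinase that raises sodium transport under aldosterone and glucocorticoids, read 8.61 (ND-WT) and 10.11 (DM-WT) in wild type and 7.74 (ND-KO) and 7.81 (DM-KO) in the knockout. Both knockout arrays lay below both wild-type arrays, and the difference was 2.84-fold in wild type and 1.05-fold in the knockout. Rcan1, an inhibitor of calcineurin, read 6.76, 8.45, 6.53 and 6.76, again with DM-WT alone above the rest. Gadd45g, a stress gene, read 7.15, 7.96, 6.66 and 6.21. The matricellular gene Ccn1 differed by 0.79 (log2) in wild type and -0.33 in the knockout, and Cebpd by 0.75 and -0.09. Of the 29 features, 9 were higher by 1.5-fold in wild type, against 4.13% of all features, and 1 in the knockout, against 1.66%. In the knockout 3 were lower, Bcl6, Pdlim1 and Tsc22d3, against 1.32%, and 16 of the 29 responded nowhere, against 89.6% of all features. The kept member was Ier5, at 0.80 and 0.75.

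Cck headed the blunted class on the higher side, and other genes had reduced responses outside the lists described so far. Cck, which encodes the hormone cholecystokinin, read 6.49 (ND-WT) and 8.92 (DM-WT) in wild type and 7.14 (ND-KO) and 7.72 (DM-KO) in the knockout, 5.39-fold higher in wild type and 1.5-fold in the knockout, just under the threshold. Cyp4a14, a fatty acid omega-hydroxylase induced through PPAR-alpha, was kept but smaller, and read 6.88, 10.82, 8.30 and 10.47. Its wild-type difference was the largest of all features at 15.4-fold against 4.52-fold in the knockout. The diabetic arrays were 0.35 (log2) apart and the nondiabetic arrays 1.42, so the gap between genotypes lay in the nondiabetic arrays. The blunted uncoupling protein gene Ucp2 was 2.45-fold higher in wild type and 1.15-fold in the knockout. Arg2, the mitochondrial arginase and also blunted, was 3.06-fold and 1.39-fold higher. Tmprss6, a hepcidin-regulating protease measured at low intensity, read 4.66, 5.67, 5.27 and 4.85.

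Targets of p53, the factor that answers DNA damage, were split between classes. Pmaip1, a pro-apoptotic gene, read 7.00 (ND-WT) and 8.37 (DM-WT) in wild type and 6.37 (ND-KO) and 6.71 (DM-KO) in the knockout and was blunted. Gdf15, a stress cytokine, read 4.87, 7.31, 5.26 and 6.79, with both diabetic arrays above both nondiabetic ones and a smaller difference in the knockout. Plk2 was likewise smaller, at 2.90-fold and 1.83-fold. The cyclin gene Ccng1 was kept at 1.17 and 0.78 (log2), Zmat3 at 0.93 and 0.81 and the nuclease gene Aen at 0.84 and 0.70. Of 20 features measured, 10 were higher by 1.5-fold in wild type and 7 in the knockout, against 4.13% and 1.66% of all features. Their median interaction was -0.19, and 5 were past the threshold on the lower side, against 3.33%. Of 14 tubule injury genes, 6 were higher in wild type and 4 in the knockout, against the same 4.13% and 1.66%, with median differences of 0.50 and 0.41. The injury receptor gene Tnfrsf12a was blunted, at 6.63, 7.80, 6.72 and 7.08.

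Blunted responses on the lower side named metabolic, developmental and secreted proteins rather than 1 list. Bmp6, a growth factor that also controls hepcidin, read 7.16 (ND-WT) and 5.80 (DM-WT) in wild type and 7.04 (ND-KO) and 7.39 (DM-KO) in the knockout. DM-WT alone was low, 2.57-fold below ND-WT, while DM-KO was 1.27-fold above ND-KO. Pzp, a broad protease inhibitor of the alpha-2-macroglobulin family, read 6.82, 4.69, 6.71 and 6.29. Emx2, a homeobox factor of kidney development, was also low on DM-WT alone, at 5.39, 4.30, 5.39 and 5.53. Pzp and Emx2 did not have a signal above local background on all arrays. Akr1b3, the aldose reductase of the polyol pathway, read 9.60, 8.85, 9.13 and 9.55. Car2, a carbonic anhydrase of the collecting duct, read 10.15, 9.55, 9.76 and 10.17. In both of these genes the differences ran in opposite directions and the knockout's stayed under 1.5-fold.

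In other genes of this class the nondiabetic wild-type array was the one apart. Hpd, an enzyme of tyrosine breakdown, read 9.22 on ND-WT and between 8.19 and 8.20 on the other 3 arrays. Ugt2b37, a glucuronosyltransferase with close copies, read 9.47, 8.49, 8.59 and 8.54, and Siah1a, a ubiquitin ligase, 5.41, 4.40, 4.36 and 4.34. Siah1a was dim, without a signal above local background on all arrays. G6pc, the glucose-6-phosphatase that releases glucose from the proximal tubule, was likewise highest on ND-WT, at 11.04, 10.13, 10.11 and 9.95. On the higher side Asns, asparagine synthetase and also dim, was low on ND-WT alone at 4.34 against 5.24 to 5.46. For such genes the interaction came from a gap between the genotypes that was present without diabetes and not with it.

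The 334 features with an interaction past 1.5-fold were sorted by which arrays set it. In 85 (25.4%) a single array stood outside the other 3 by at least 1.5-fold while those 3 lay within 1.5-fold of each other. That array was DM-WT in 56 (16.8%), ND-WT in 18, DM-KO in 6 and ND-KO in 5. Of the blunted features, DM-WT alone was high in 32 of 104 and alone low in 24 of 52. The genotypes were 1.5-fold or more apart in diabetes and not without it in 123 of the 334, without diabetes and not with it in 44, in both in 16 and in neither in 151. They were further apart with diabetes than without it in 210 (62.9%). Over all features, ND-WT and ND-KO were 1.5-fold apart in 123, DM-WT and DM-KO in 253. The technical readings of DM-WT given above move with these counts, and their part was not tested. Dim features carried more of the interactions, 9.62% of the third of features with the lowest intensity, 4.86% of the middle and 2.98% of the highest.

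Reversed responses were found in Bcl6, Noct, Hspa1a and Adcy6. Bcl6, a transcriptional repressor, read 6.01 (ND-WT) and 7.39 (DM-WT) in wild type and 7.34 (ND-KO) and 6.54 (DM-KO) in the knockout, higher with diabetes by 1.38 (log2) in wild type and lower by 0.79 (log2) in the knockout. ND-KO and DM-WT were alike, and the knockout's nondiabetic array was 1.33 above the wild type's. Noct, nocturnin, whose transcript follows a daily rhythm, read 7.14, 8.61, 6.35 and 5.76. Both knockout arrays lay below both wild-type arrays. Hspa1a, an inducible heat shock protein whose signal may include that of its near-identical copy Hspa1b, read 8.89, 9.54, 7.79 and 6.72. Adcy6, an adenylyl cyclase of the collecting duct and other segments, read 7.14, 6.27, 6.58 and 7.27. For 3 of the 4, a difference lay near the threshold, -0.60 in the knockout for Noct, 0.64 in wild type for Hspa1a and 0.68 in the knockout for Adcy6. Under normexp Bcl6, Noct and Adcy6 were blunted instead, and with median scaling Noct was blunted and Hspa1a knockout-only. Their interactions kept their sign in every setting.

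Among other heat shock genes, Hspa1b and Dnajb1 were lower with diabetes in the knockout. Hspa1b read 10.66 (ND-WT) and 11.25 (DM-WT) in wild type and 9.98 (ND-KO) and 8.97 (DM-KO) in the knockout and was knockout-only, its wild-type difference of 0.58 lying just under the threshold. Dnajb1, an HSP40 partner of HSP70, had a knockout difference of -0.63 (log2) with equal readings of 7.38 on both wild-type arrays. The small heat shock genes Hspb1 and Hspb8 were blunted instead, at 2.02-fold and 2.20-fold in wild type against 1.17-fold and 1.2-fold. Of 21 heat shock features, 5 had a lower interaction past the threshold (3.33% of all features) and 1 a higher one (2.49%), while the median over the list was -0.10. The higher one was Hspa4l, at 5.03, 4.89, 4.37 and 4.94.

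Knockout-only responses were few and, like the blunted ones, often dim. A signal above local background on all arrays was found in 13 of the 31. The same held for 73 of the 156 blunted and 54 of the 68 kept features, against 4220 of all 5738. Akr1c18, the hydroxysteroid dehydrogenase that inactivates progesterone, had the most negative interaction of all features, -2.18 (log2). It read 6.72 (ND-WT) and 6.44 (DM-WT) in wild type and 7.10 (ND-KO) and 4.65 (DM-KO) in the knockout, 5.47-fold lower with diabetes in the knockout and 1.21-fold in wild type. Sptssb, a subunit of serine palmitoyltransferase, was high on DM-KO alone, at 4.79, 4.55, 4.96 and 6.31. Palld, an actin-bundling protein, was instead low on ND-KO alone, at 6.34, 6.16, 5.00 and 5.97, and so was the focal-adhesion kinase gene Ptk2, at 6.08, 6.13, 5.23 and 6.11. Tnc, the matrix glycoprotein tenascin C, read 4.88, 4.77, 5.36 and 6.11, and the mitotic kinesin gene Kif20a 5.82, 5.56, 5.42 and 6.16. Aqp2, the vasopressin-regulated water channel of the collecting duct, was 1.92-fold higher with diabetes in the knockout and 1.22-fold in wild type, at 10.00, 10.29, 9.62 and 10.56. The summed intensity of 17 collecting duct markers, Aqp2 included, was 6620, 6863, 5566 and 7183 in the same order. The part of that segment's share of the cortex in the Aqp2 difference was not tested.

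On the lower side, Lpl, lipoprotein lipase, read 10.69 (ND-WT) and 10.21 (DM-WT) in wild type and 11.17 (ND-KO) and 9.91 (DM-KO) in the knockout. It was 2.39-fold lower with diabetes in the knockout and 1.40-fold in wild type. Lpl is also an adipocyte marker. The summed intensity of 12 such features, Lpl included, was 11235, 11269.5, 9581 and 7067 in the same order, with 13 to 16 of 23 usable per array. The brightest of them was Pck1, also a proximal tubule enzyme, at 12.63, 12.79, 11.97 and 11.55, while the adipocyte fatty acid carrier Fabp4 read 9.56, 10.20, 9.64 and 9.71. Bright features such as Pck1 and Lpl itself weigh most in the sum, so it is not a reading apart from Lpl. The median difference over the 12 features was 0.07 (log2) in wild type and 0.02 in the knockout. The part of fat cells in the Lpl difference was not tested. Pdlim1, a cytoskeletal adaptor, read 9.47, 9.53, 8.74 and 8.01. The values nearest the limits of the classes were close to each other. The gene just inside the blunted class, Sirpa, had an interaction of -0.59 and the gene just outside, Ceacam2, 0.58. For the knockout-only class they were Vpreb1 at 0.60 and Akap8l at 0.56.

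Opposed differences stayed under 1.5-fold in each genotype, by the definition of the class. Their leading genes were Mmp2, a matrix metalloproteinase, at 5.23, 4.74, 4.73 and 5.30, and Adamts1, another secreted protease, at 5.20, 5.67, 5.22 and 4.67. Of the 127 opposed features, 76 lay in the third of features with the lowest intensity, and under normexp the class held 18 features.

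Among the lists with a median interaction on the positive side, cholesterol and fatty acid synthesis stood highest, with a median of 0.27. In it 14 of 15 interactions lay above 0, against 2973 of 5738 over all features. In this list 1 interaction passed 1.5-fold on the higher side (2.49% of all features), that of the sterol enzyme gene Msmo1, at 7.20 (ND-WT) and 6.99 (DM-WT) in wild type and 7.57 (ND-KO) and 8.08 (DM-KO) in the knockout. Endothelial markers, which include cells that carry ICAM-1, had a median of 0.19 over 19 features. Of these, Sox18 and Edn1 were past the threshold on the higher side (2.49% of all features), both dim. Of 12 leukocyte adhesion and migration genes, which include integrins, 0 had an interaction past 1.5-fold, where 2.49% of all features were past it on the higher and 3.33% on the lower side, so that few or none in a list of this size would be at that share. Chemokines and cytokines had 22 features measured of 54 on the array and also 0 interactions past the threshold, which for the same reason says little about the list. This list leaves out the chemokine genes Cxcl10 and Cxcl9, which were counted with the interferon-induced genes. Their interactions were -1.34 and -1.12. The monocyte chemokine Ccl2 was kept, at 5.66, 6.31, 5.68 and 6.28. Of 30 extracellular matrix and TGF-beta features, 7 were higher by 1.5-fold in wild type (4.13% of all features) and 2 in the knockout (1.66%). In wild type 1 was lower (2.56% of all features), and the median differences were 0.22 and 0.12. Complement and coagulation genes had a median interaction of -0.35 over 13 features, which became -0.040 when a wider strip of the array's edge was left out. Proximal tubule markers, 31 features, had a median interaction of 0.05 and 1 past the threshold on the lower side, near the 3.33% of all features. Cytosolic ribosomal proteins (50 features), proteasome subunits (25) and the respiratory chain (43) had 0 responses past 1.5-fold in either genotype. Over all features 4.13% were higher and 2.56% lower in wild type, and 1.66% and 1.32% in the knockout. Lists of these sizes would hold few responders at those shares.

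**Figure D5:**
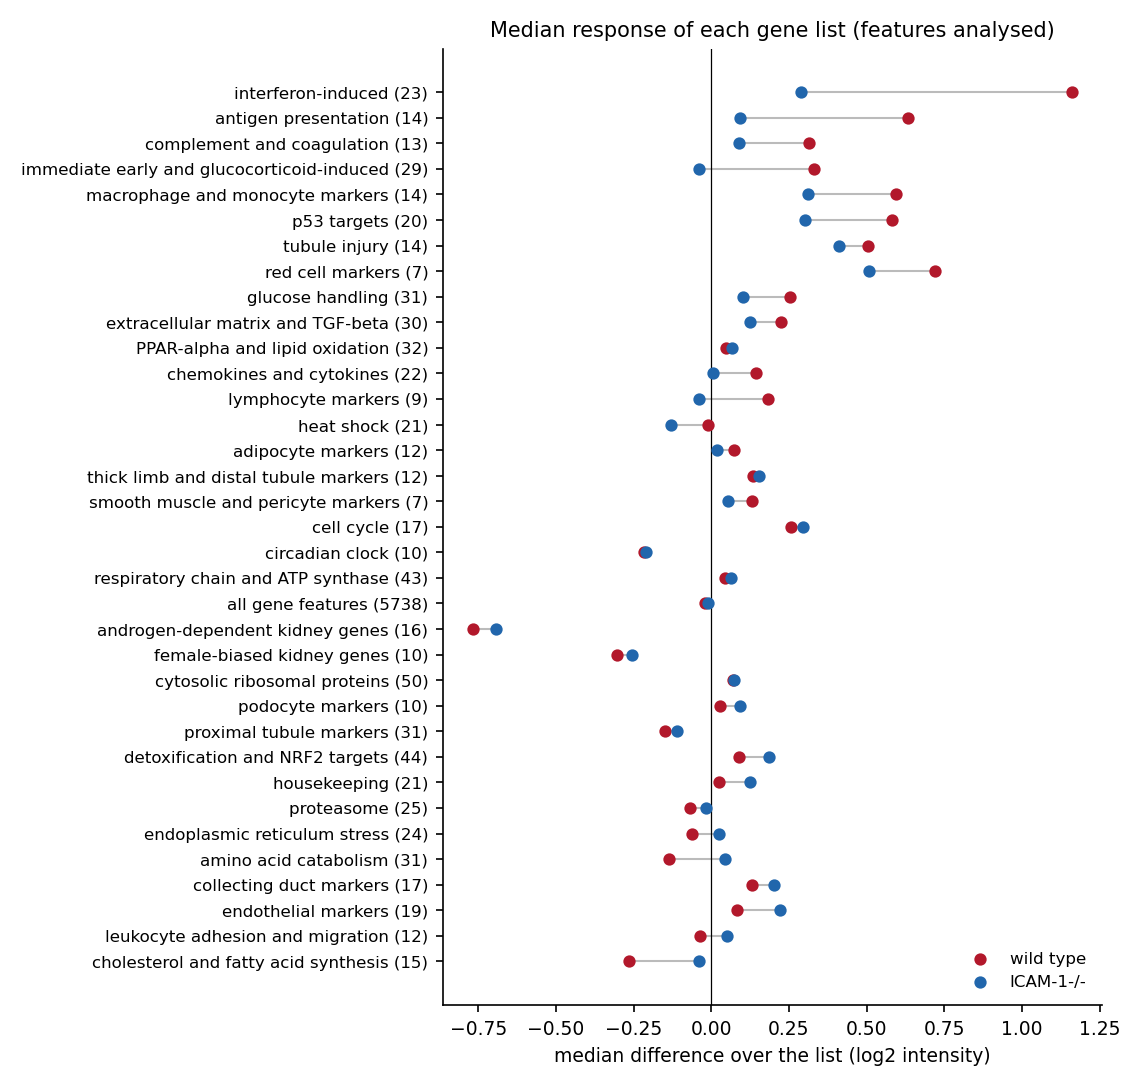
Median difference between the diabetic and the nondiabetic array (horizontal axis, log2 intensity) over each gene list with 7 or more measured features (number in parentheses), in wild type (red) and ICAM-1-/- (blue), ordered by the median interaction. Interferon-induced genes lie at 1.16 and 0.29 and androgen-dependent genes at -0.77 and -0.69, beside -0.02 and -0.01 for all features.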

How the data were processed

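Biotinylated cRNA from renal cortex was hybridised to CodeLink mouse arrays, per the labels. The deposited scanner files give, per the file headers, a mean signal intensity and a median background intensity for every spot, neither subtracted nor scaled. The local background was subtracted, gene features flagged usable on all arrays were kept, Meta Row 1, columns 44 to 48, was left out, and the 5738 features were quantile-normalized (limma 3.58.1 in R 4.3.3) and put on the log2 scale. The class rules were run on simulated data with responses well past the threshold and a spread smaller than that of repeated spots. This checks the code and not the calls made here. The members, lists and class rules were chosen with earlier results of these data known. Genes named were the leading members of each class (8 a direction), the 10 highest and 10 lowest interactions, the 4 or fewer members of a list whose interactions were furthest from 0, and the genes nearest each class limit. Other genes named (among them Irf1, Cxcl9, H2-Aa, H2-Eb1, Ccn1, Cebpd, Ier5, Ccng1, Zmat3, Aen, Gsta2, Dnajb1, Cd14, C1qc, Ccl2, Gbp2, Gbp4, Irf9, Irgm2, Tsc22d3, Fcgr2b and the genes listed by their promoter match) were chosen after their values were seen. The deposited value table held the subtracted intensity of each array divided by 1 constant (43.9, 38.1, 45.0 and 46.9), with all values compared within 0.1%, and served as an alternative. Symbols came from the platform annotation (8943 spots) or a transcript accession (285), and 803 gene spots had none. Some genes that the rule would name are not reported here.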

Additional observations from a re-analysis of the deposited data

Results flagged for a closer look

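In 4 genes the diabetic difference ran past 1.5-fold in opposite directions in wild-type and ICAM-1-/- cortex. The interaction was -2.17 (log2) for Bcl6, -2.07 for Noct, -1.72 for Hspa1a and 1.55 for Adcy6. These differences between genotypes were not tested, since each rests on 4 arrays.

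Some features outside the comparisons, because their spots were usable on both diabetic arrays and on neither nondiabetic array, carried a signal well above that of the nondiabetic arrays. That they were brighter on the diabetic arrays follows from how they were chosen. There were 44 such gene spots (0.462% of gene spots) against 39 usable on both nondiabetic arrays only. The pattern was seen in 0 negative control spots, which says little, since 97.9% of those were usable on no array. Bounds were set against the lowest usable intensity of the nondiabetic array, with arrays scaled to the median of the features analysed. Of the 12 brightest that carry a symbol, 6 exceeded their bound by 2-fold or more whichever genotype was read. The background-subtracted intensity of Ugt1a2, a glucuronosyltransferase whose family members share exons, was 8.35 (ND-WT) and 821 (DM-WT) in wild type and 10.3 (ND-KO) and 129 (DM-KO) in the knockout, at least 56.1-fold higher in wild type and at least 7.19-fold higher in the knockout. Cdkn1a, the p53 target p21, read 9.0, 198, 8.38 and 142, at least 13.5-fold and 7.93-fold higher. Phlda3, another p53 target, read 59.3 on DM-WT and 59.4 on DM-KO. Cbr3, a carbonyl reductase, read 40.8 and 43.2 on the diabetic arrays, 1700007K13Rik 41.8 and 40.2, and Cp, ceruloplasmin, 36.7 and 37.2. Since the nondiabetic readings are bounds, no interaction was computed for these genes.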

How the results depend on the processing

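Beside the counts in the report, normexp background correction gave 16 higher and 9 lower kept responses, 32 and 9 blunted, 2 and 7 knockout-only, 5 kept but smaller, 1 reversed, 18 opposed, 23 higher and 52 lower interactions, and 15 features set by DM-WT alone. Without background subtraction the same counts were 18 and 8, 32 and 9, 2 and 7, 5, 1, 22, 26 and 53, and 15. At a 2-fold threshold they were 10 and 2, 28 and 5, 1 and 3, 2, 0, 16, 15 and 41, and 16. Over the 4220 features with a signal above local background on all arrays, kept responses were 27 higher and 26 lower. Blunted ones there were 51 and 21, knockout-only 5 and 8, kept but smaller 9 and opposed 52. Interactions there were 55 higher and 96 lower, and features set by DM-WT alone 26. With median scaling 2 responses were reversed, and 2 promoters of kept higher genes held the interferon element against 1.

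The median interaction of interferon-induced genes, -0.86, was -0.53 with normexp, -0.52 without background subtraction and -0.97 over the brighter features. That of antigen presentation, -0.46, was -0.32 with either background change. That of macrophage markers, -0.29, was -0.15 with either, -0.60 over the brighter features and -0.43 with each of 32 zones of the array centred on its own median, an alternative chosen after seeing the data. For complement and coagulation, -0.35, it was -0.19, -0.16 without background subtraction and -0.040 with the wider edge. For leukocyte adhesion, 0.22, it was 0.11 without background subtraction, and for cholesterol and fatty acid synthesis, 0.27, it was 0.40 with the wider edge. The cause of these shifts was not tested. Among the genes named by rule, no interaction past 1.5-fold changed sign in these settings. Those of the genes chosen after their values were seen were not followed in this way. Of 109 named interactions past 1.5-fold, 65 fell under it with normexp, 63 without background subtraction, 11 with zones, 7 with median scaling and 4 with cyclic loess.

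No paired analysis was possible because each group is 1 array, and for the same reason no replicate was left out. Low signal over background limits the dim features most, and the spread between mice is unknown.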

Other observations

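Red cell markers had a median difference between diabetic and nondiabetic arrays of 0.72 (log2) in wild type and 0.51 in the knockout over 7 features, of which 4 were higher by 1.5-fold in wild type (4.13% of all features) and 0 in the knockout (1.66%). The summed intensity of those 7 was 574 (ND-WT) and 857 (DM-WT) in wild type and 658 (ND-KO) and 788 (DM-KO) in the knockout. Alas2, the erythroid enzyme of haem synthesis, was blunted, at 6.36 (ND-WT) and 7.18 (DM-WT) in wild type and 6.83 (ND-KO) and 6.60 (DM-KO) in the knockout.

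Interactions were not spread evenly over the array. In its upper block (Meta Row 1) 85 features had a higher and 68 a lower interaction past 1.5-fold, and in its lower block 58 and 123.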
